A study of Mus musculus with 12 samples.

Results

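The mitochondrial genome of the mouse is a small circle that carries 37 genes, and the rows of the expression table whose names begin with mt- hold all 37 of them among 41128 genes. They are 13 messenger RNAs (mRNAs), 22 transfer RNAs (tRNAs) and 2 ribosomal RNAs (rRNAs). They were chosen by name and not by a cut on any measured value, but with earlier results of these data known. Their RNA was measured in resting B cells lacking CD43 and in naive CD4+ T cells carrying CD62L, both from the spleen of C57BL/6J mice that were 6 to 8 weeks old. The 12 libraries form 4 groups of 3, namely B cells from females and from males (numbered 1 to 3 in each sex) and T cells from females and from males (numbered 4 to 6). B cells were taken as untouched CD43- cells. T cells were enriched by magnetic depletion of other cells and sorted as DAPI-negative, CD62L-high, CD44-low and CD25-negative cells. Each replicate is described as a pool of cells, and the p-values set differences between groups against the spread among pools. Libraries were made from total RNA after removal of rRNA with Ribo-Zero Gold, by a protocol that keeps the strand. The values are the authors' adjusted TPM, a length-corrected share of transcripts that was rescaled between libraries. Sequencing depth is unknown, so a value near 0 says only that a gene is listed there at little.

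Mitochondrial DNA is transcribed from both strands as long precursors. The precursors are cut at the tRNAs that lie between most of the other genes, which frees the mRNAs and rRNAs. The 13 mRNAs encode core subunits of the respiratory chain and of ATP synthase. They are 7 of complex I (the mt-Nd genes), mt-Cytb of complex III, 3 of complex IV (mt-Co1 to mt-Co3) and mt-Atp6 and mt-Atp8 of ATP synthase. All other subunits of these complexes, the proteins of the mitochondrial ribosome and the transcription machinery are encoded in the nucleus. On the reference, 28 of the 37 genes lie on the plus strand and 9 on the minus strand, the latter being mt-Nd6 and 8 tRNAs.

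Several of the genes share letters with each other or with the nuclear genome, and these stretches are shown first because they bear on the values (sequences from the GENCODE M21 transcripts of GRCm38). The genes mt-Atp8 and mt-Atp6 share 43 bases on the same strand, and mt-Nd4l and mt-Nd4 share 7. The end of mt-Atp8 (chrM:7907-7969, plus strand) and the end of mt-Nd4l (chrM:10147-10173, plus strand) are printed with the shared bases in capitals.
mt-Atp8, bases 142 to 204: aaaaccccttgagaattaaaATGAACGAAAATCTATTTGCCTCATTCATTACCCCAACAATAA
mt-Nd4l, bases 271 to 297: caaaatctcaacctactacaATGCTAA

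The genes mt-Nd5 and mt-Nd6 lie on opposite strands and overlap by 14 bases at their 3′ ends, shown in capitals, each read 5′ to 3′ on its own strand (chrM:13532-13565, plus strand, and chrM:13552-13585, minus strand).
mt-Nd5, bases 1791 to 1824: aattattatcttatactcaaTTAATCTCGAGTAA
mt-Nd6, bases 486 to 519: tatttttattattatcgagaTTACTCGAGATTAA

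The annotated mt-Co3, mt-Nd4 and mt-Cytb end in a single T of a stop codon, in capitals below, which the poly(A) tail completes (chrM:9361-9390, chrM:11515-11544 and chrM:15259-15288, plus strand).
mt-Co3, last 30 bases: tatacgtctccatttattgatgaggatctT
mt-Nd4, last 30 bases: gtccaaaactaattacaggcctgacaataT
mt-Cytb, last 30 bases: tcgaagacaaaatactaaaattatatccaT

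The nuclear genome carries copies of mitochondrial DNA. Comparison of the 37 genes with the nuclear transcripts of the table by blastn found 11 pseudogenes that match an mt- gene at 95% identity or more, and 7 of them match at 99% or more. These 7 lie side by side on the minus strand of chromosome 1, between chr1:24611535 and 24616197, in the order of the mitochondrial genes from mt-Co1 to mt-Nd4. RP23-8J15.2 matches mt-Co2 over 681 of its 681 bases, RP23-8J15.3 matches mt-Atp6 over 678, RP23-8J15.4 matches mt-Co3 over 783, Gm10222 matches mt-Nd4l over 294 and RP23-8J15.7 matches the first 876 bases of mt-Nd4, all without a mismatch. RP23-8J15.5 differs from mt-Nd3 by 1 substitution (T3C) over 345 bases, and RP23-8J15.1 differs from the last 483 bases of mt-Co1 by 1 substitution (A1066T), with positions counted from 1 at the 5′ end of the mt- gene. The stretches around these substitutions are shown with the differing base in capitals (chrM:9459-9518 plus strand against chr1:24613060-24613119 minus strand, and chrM:6390-6450 plus strand against chr1:24616128-24616188 minus strand), followed by the first 60 bases of mt-Co2 (chrM:7013-7072), which RP23-8J15.2 holds letter for letter.
mt-Nd3: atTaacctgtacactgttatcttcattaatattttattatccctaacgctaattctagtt
RP23-8J15.5: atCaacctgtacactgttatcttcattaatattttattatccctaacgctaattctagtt
mt-Co1: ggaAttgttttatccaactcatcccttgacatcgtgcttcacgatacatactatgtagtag
RP23-8J15.1: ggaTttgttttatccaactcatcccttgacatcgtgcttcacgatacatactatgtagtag
mt-Co2: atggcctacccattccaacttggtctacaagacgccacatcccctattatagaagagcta

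The remaining 4 copies, Gm13339, Gm13340, Gm13341 and Gm4076, match mt-Nd2, mt-Co1, mt-Co2 and mt-Nd5 at 95.2% to 97.6% identity. A read that lies within an identical stretch carries nothing that assigns it to the mitochondrion or the nucleus, and how such reads were divided is not given in the sources used here.

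The 13 mRNAs and 2 rRNAs formed a ladder of levels. At its top was mt-Rnr2, the RNA of the large subunit of the mitochondrial ribosome, with a mean of 22012 adjusted TPM over the 12 libraries, and at its bottom mt-Nd4l with 18.5. The mRNAs of complex IV led, with means of 6882 for mt-Co1, 3529 for mt-Co3 and 1301 for mt-Co2. Next came mt-Atp6 (853), mt-Atp8 (717), mt-Nd1 (702), mt-Nd3 (566) and mt-Cytb (499), and below them mt-Nd4 (239), mt-Nd5 (135), mt-Nd2 (135), mt-Nd6 (83.1) and mt-Nd4l. Read neighbour by neighbour within each library, 7 of the 14 steps of this order held in 12 of 12 libraries. The order of mt-Rnr1 and mt-Co3 held in 6 of 12, that of mt-Nd5 and mt-Nd2 in 4 of 12 and those of mt-Atp6, mt-Atp8 and mt-Nd1 in 8 of 12, so these neighbours were not separated. The highest library exceeded the lowest by 1.49-fold for mt-Co1 and by 3.90-fold for mt-Nd5, the smallest and the largest such ratio among the 13 mRNAs. This order uses the values as deposited, without the signal listed under the nuclear copies. With copies added, the mean log2 value of mt-Nd3 was 9.89, above the 9.44 of mt-Atp8 and the 9.42 of mt-Nd1. The plot of the 15 genes by library shows the levels as deposited.

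**Figure D1:**
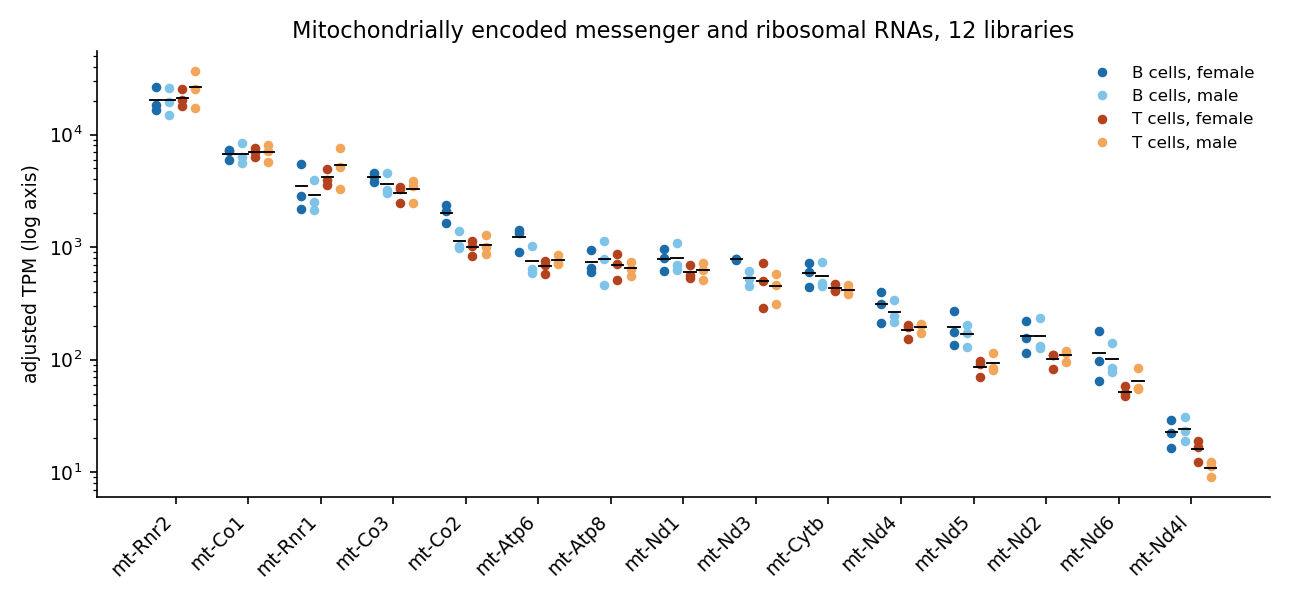
Adjusted TPM (log axis) of the 13 mitochondrial mRNAs and 2 rRNAs in 12 libraries, ordered by their mean, with points for libraries coloured by group and a black line for the mean of each group of 3. mt-Rnr2 lies above and mt-Nd4l below all other genes in each library, and the T cell points of mt-Nd5 and mt-Nd4 lie below the B cell points.

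The deposited interval around each value shows how well it was determined. The upper bound divided by the lower bound had a median over the libraries of 1.02 for mt-Rnr1, mt-Rnr2 and mt-Co1, 1.04 for mt-Nd1 and mt-Cytb and at most 1.09 for mt-Nd2, mt-Atp8, mt-Co3, mt-Nd4 and mt-Nd5. The median was 1.16 for mt-Co2, 1.19 for mt-Nd6, 1.20 for mt-Atp6, 1.35 for mt-Nd3 and 3.68 for mt-Nd4l. With the exception of mt-Nd6, the genes with these wider intervals have a copy on chromosome 1 that matches them over nearly their whole length, as does mt-Co3, whose interval was narrow.

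The 22 tRNAs were listed at almost nothing. Their adjusted TPM ran from 0.00035 to 0.0928 over all tRNAs and libraries, their lengths from 59 to 75 bases, and the median ratio of the upper to the lower bound of a tRNA from 104.6 to 3124. Even the highest upper bound, for mt-Tt, the tRNA of threonine, was 0.613. None passed the filter for testing, which kept genes that reached 1 adjusted TPM in 3 or more libraries. Mature tRNAs are short and heavily modified, and a library of this kind is not designed to hold them. The tRNAs of tyrosine (mt-Ty, chrM:5260-5326, minus strand), threonine (mt-Tt, chrM:15289-15355, plus strand), leucine (mt-Tl1, chrM:2676-2750, plus strand) and phenylalanine (mt-Tf, chrM:1-68, plus strand) are printed with the anticodon in capitals. Each known anticodon was located in the middle of a loop of 7 bases closed by a stem of 5 positions. The stem could hold 1 unpaired position, as it does in mt-Tt and mt-Tl1.
mt-Ty: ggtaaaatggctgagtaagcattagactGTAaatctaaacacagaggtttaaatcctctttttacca
mt-Tt: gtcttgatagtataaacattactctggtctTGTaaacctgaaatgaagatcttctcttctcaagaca
mt-Tl1: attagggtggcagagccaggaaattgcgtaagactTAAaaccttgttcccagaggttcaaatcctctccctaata
mt-Tf: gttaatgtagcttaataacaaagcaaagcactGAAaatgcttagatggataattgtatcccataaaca

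Replicates of a tRNA nevertheless sat close together. mt-Ty was listed at 0.0036, 0.0040 and 0.0034 in female B cells and at 0.0353, 0.0343 and 0.0312 in male B cells. The 3 female values lay below the 3 male values without overlap. The ranges of the sexes were apart, in either direction, for 17 of the 22 tRNAs in B cells and for 13 among T cells. Among the 22955 genes of the table that stayed under 0.1 in every library, the same was true of 63.7% for B cells and of 64.2% for T cells, against 7.2% and 8.49% of the 12520 genes tested. The tRNA counts come to 77.3% and 59.1%. Groups without overlap were thus common among the lowest values of this table whatever the gene, and no tRNA difference is read from them.

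Of the 15 genes that passed the filter, 9 differed between B cells and T cells in limma with Benjamini-Hochberg adjustment over all 12520 genes tested, and all 9 were higher in B cells. Over all genes tested, 73.0% passed the same threshold and 31.4% passed it with the higher level in B cells. The 9 are mt-Nd2, mt-Nd3, mt-Nd4, mt-Nd4l, mt-Nd5 and mt-Nd6 of complex I, mt-Cytb of complex III, mt-Co2 of complex IV and mt-Atp6 of ATP synthase. Their log2 differences (B minus T on the scale log2 of adjusted TPM + 1) ran from 0.39 to 0.98. The median over the 13 mRNAs was 0.49, beside -0.09 over all genes tested. In bulk RNA, more cells with a transcript and more transcript per cell cannot be told apart.

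The largest difference was that of mt-Nd5, which encodes a proton-pumping subunit of complex I (chrM:11742-13565, plus strand). Its adjusted TPM was 271, 176 and 135 in female B cells, 201, 129 and 174 in male B cells, 91.6, 69.6 and 97.2 in female T cells and 85.2, 80.3 and 115 in male T cells. The lowest B cell library lay above the highest T cell library, as for 24.2% of the genes tested, and 53.9% had no overlap in either direction. The means were 181 ± 51.7 (SD, n = 6) and 89.8 ± 15.498 (SD, n = 6), with a log2 difference of 0.98 ± 0.17 (SE, limma, adjusted p = 0.000205). The gene mt-Nd4 (chrM:10167-11544, plus strand), another membrane subunit of complex I, was the only other of the 15 without overlap between B and T cells. It was listed at 401, 314 and 213 in female B cells and 337, 218 and 246 in male B cells, against 204, 152 and 196 in female and 203, 171 and 209.6 in male T cells (0.57 ± 0.15 SE, limma adjusted p = 0.0047).

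The gene mt-Nd6 (chrM:13552-14070), the lone mRNA on the minus strand, was higher in B cells, as were 5 of its 6 plus-strand partners of complex I. Its lowest, median and highest adjusted TPM were 64.2, 91.0 and 180.4 in the B cell libraries against 47.5, 55.3 and 85.2 in the T cell libraries. The ranges overlapped through male T cell 6, which held 85.2 against 47.5 to 57.9 in the other T cell libraries. Its log2 difference was 0.80 ± 0.23 (SE, limma adjusted p = 0.0066). Within libraries its ratio to mt-Nd5, which it overlaps on the other strand, was 0.475 to 0.699 in B cells and 0.520 to 0.742 in T cells.

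The lowest, median and highest values of mt-Nd2 were 114, 144 and 233 for B cells against 83.2, 109.6 and 121 for T cells (log2 difference 0.59 ± 0.18 SE, limma adjusted p = 0.010). Those of mt-Nd4l were 16.3, 22.8 and 30.8 against 9.13, 12.4 and 18.9 (0.76 ± 0.15 SE, adjusted p = 0.00068). For mt-Cytb, the only mitochondrial subunit of complex III, they were 442, 539 and 741 against 382, 413 and 474 (0.39 ± 0.14 SE, adjusted p = 0.025). In each of these genes the middle of the B cell values lay above the T cell range while the ends overlapped. The call of mt-Cytb was lost without female B cell 1, male B cell 1, female T cell 5 or male T cell 6 (highest adjusted p = 0.064).

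The 3 other genes that passed have, like mt-Nd4 and mt-Nd4l, a near-identical nuclear copy. The lowest, median and highest adjusted TPM of mt-Atp6, which forms the proton channel of ATP synthase, were 592, 961 and 1425 for B cells against 582, 721 and 843 for T cells (log2 difference 0.39 ± 0.16 SE, limma adjusted p = 0.042). Those of mt-Nd3 were 454, 687 and 791 against 291, 481 and 724 (0.49 ± 0.20 SE, adjusted p = 0.044). Those of mt-Co2, which takes electrons from cytochrome c, were 986, 1505 and 2359 against 840, 1018 and 1283 (0.55 ± 0.15 SE, adjusted p = 0.0047). The ranges overlapped in each. The call of mt-Atp6 was lost without female B cell 1 or 2, male B cell 1, female T cell 5 or 6 or male T cell 5 or 6, and that of mt-Nd3 without any of female B cells 1 to 3, male B cell 1 or 3, female T cell 5 or 6 or male T cell 5 or 6. The call of mt-Co2 was kept without each single library.

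Same-numbered female and male T cell libraries deviated together, so the 6 T cell libraries are not fully independent. With these pairs as a random replicate block (limma, consensus correlation 0.48) 8 of the 15 genes passed, where 69.8% of all genes did and 30.2% as higher in B cells, and mt-Atp6 did not (adjusted p = 0.062). With each pair averaged to 1 value, 6 passed, where 68.1% and 29.4% did, and mt-Atp6, mt-Nd3 and mt-Cytb did not (adjusted p = 0.12, 0.054 and 0.087).

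The remaining mRNAs did not pass the threshold as deposited. mt-Nd1 missed it narrowly, with 612, 745 and 1091 in the 6 B cell and 512, 595 and 726 in the 6 T cell libraries as lowest, median and highest (0.36 ± 0.16 SE, limma adjusted p = 0.058). The log2 difference was 0.30 ± 0.18 SE for mt-Co3 (adjusted p = 0.15) and 0.15 ± 0.21 SE for mt-Atp8 (adjusted p = 0.54). The most abundant mRNA, mt-Co1, the catalytic subunit of complex IV, had a log2 difference of -0.05 ± 0.20 SE (adjusted p = 0.84), whose sign turned with the scaling between libraries. Its ratio to mt-Nd5 within a library, which no scaling changes, was 26.9 to 44.3 in B cells and 50.2 to 101 in T cells, without overlap. These are the mRNAs with the lowest and the highest log2 difference, so a wide gap in their ratio follows from that choice. Of the mRNA total, mt-Co1 made up 40.7% ± 3.1 of that of B cells (SD, n = 6) and 48.1% ± 1.48 of that of T cells (SD, n = 6), again without overlap. The 7 complex I mRNAs together took 12.6% to 14.4% in B cells and 9.66% to 11.9% in T cells. These shares of the mRNA total use the values as deposited, without the signal listed under the nuclear copies. They therefore depend on how signal was divided between the mitochondrial genes and their copies.

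The 13 mRNAs added up to 1.96%, 2.49% and 2.73% of the deposited total in female B cells, 2.56%, 1.91% and 2.05% in male B cells, 1.77%, 1.68% and 1.56% in female T cells and 1.80%, 1.73% and 0.832% in male T cells. All 6 B cell libraries lay above all 6 T cell libraries (2.28% ± 0.352 against 1.56% ± 0.367, SD, n = 6 each), and male T cell 6 stood apart from the other T cell libraries. This sum is a description and was not tested. As a share of nuclear protein-coding genes plus mitochondrial mRNAs it was 3.36% to 4.60% in B cells and 2.16% to 3.25% in T cells, but with Lars2 left out of that denominator the ranges overlapped, at 3.46% to 5.41% and 2.71% to 3.49%. With the nuclear copies added to the mRNAs, the ranges of the share of the total overlapped, at 2.17% to 3.34% and 1.06% to 2.35%.

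The values listed under the chromosome 1 copies were as high as those of many mitochondrial mRNAs. RP23-8J15.2, the copy of mt-Co2, was listed at 715, 1039 and 779 adjusted TPM in female B cells, 2445, 1385 and 1414 in male B cells, 1677, 1442 and 1292 in female T cells and 1356, 1398 and 1026 in male T cells. The gene mt-Co2 itself was listed at 2359, 2075 and 1625 in female B cells, 1385, 1015 and 986 in male B cells, 1031, 1141 and 840 in female T cells and 1283, 1005 and 863 in male T cells. Female B cells held more signal under the mitochondrial gene than any other library, and on average less under the copy than any other group.

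The copy held 23.3% to 33.4% of the summed signal of the mt-Co2 pair in female B cells and 51.4% to 63.8% in the other 9 libraries. For mt-Atp6 and RP23-8J15.3 it held 17.8% to 23.3% against 45.1% to 55.4%, for mt-Co3 and RP23-8J15.4 it held 9.44% to 11.6% against 23.6% to 39.0%, and for mt-Nd3 and RP23-8J15.5 it held 12.8% to 19.02% against 32.5% to 60.3%. In each of these 4 pairs the 3 female B cell libraries lay below all other libraries. For the other 3 pairs female B cells did not stand apart. The copy of mt-Co1 held 0.818% to 1.85%, that of mt-Nd4 1.73% to 9.25% and that of mt-Nd4l 36.1% to 70.8% over the 12 libraries.

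**Figure D2:**
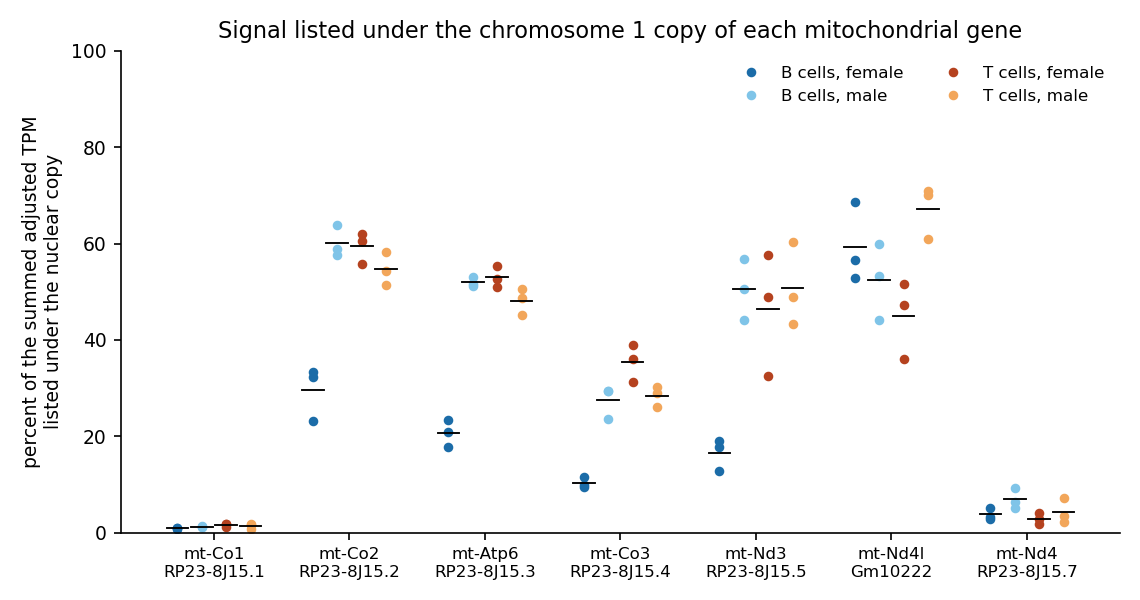
Percent of the summed adjusted TPM of each mitochondrial gene and its chromosome 1 copy that is listed under the copy, per library, with a black line for the mean of each group of 3. For mt-Co2, mt-Atp6, mt-Co3 and mt-Nd3 the 3 female B cell libraries lie below the 9 others.

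This split bears on the comparison of the sexes. The names of the deposited columns carry a digit, 1 or 2, that is the same within each group and differs between the sexes of each cell type (2 for female B cells and male T cells). Its meaning is not given in the sources used here, and it cannot be told apart from sex within a cell type. The comparison of the sex effects of the cell types sets the groups with digit 2 against those with digit 1. It cannot be told apart from the digit either. None of the 15 mitochondrial genes passed the threshold between females and males in B cells (limma, 2 of 15 at an unadjusted p under 0.05), where 0.144% of all genes tested did and 2.98% had such an unadjusted p. Nor did any in T cells (1 of 15 at an unadjusted p under 0.05, beside 2.55% of all genes, while 0.104% of all genes passed), and none differed between the sex effects of the cell types (2 of 15 at an unadjusted p under 0.05, beside 2.36% of all genes, while 0.0% of all genes passed). The largest sex differences in B cells were those of mt-Co2 (female minus male 0.84 ± 0.21 SE, limma adjusted p = 0.42), mt-Atp6 (0.71 ± 0.22 SE, adjusted p = 0.92) and mt-Nd3 (0.58 ± 0.29 SE, adjusted p = 1.0). For mt-Co2 and mt-Nd3 the 3 female values lay above the 3 male values, as for 3.35% of the genes tested. Without the filter on low values, which brings in the low genes described above and lets 26.7% of 41128 genes pass, mt-Co2 passed too (adjusted p = 0.016). Of the 7 copies on chromosome 1, 2 passed the threshold in the opposite direction, RP23-8J15.4 with -1.49 ± 0.20 SE (adjusted p = 0.0068) and RP23-8J15.5 with -1.80 ± 0.25 SE (adjusted p = 0.0094), where 0.0879% of all genes tested did, and RP23-8J15.3 had -1.35 ± 0.24 SE (adjusted p = 0.065). Leaving out female B cell 3 took RP23-8J15.4 to an adjusted p of 0.051, and leaving out male B cell 3 took RP23-8J15.5 to 0.054. In a fit of the B cells alone neither passed (adjusted p = 0.082 and 0.43).

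When each mitochondrial gene was summed with its copies and the whole table fitted again, the sex differences in B cells became 0.02 for mt-Co2, -0.02 for mt-Atp6 and -0.18 for mt-Nd3. The summed signal of mt-Co2 was 3092, 3128 and 2418 adjusted TPM in female B cells and 3850.5, 2411 and 2414 in male B cells, which overlap. The same held for the gene with the lowest unadjusted p in T cells, mt-Nd4l, which was listed at 16.8, 12.4 and 18.9 in females and 9.13, 11.4 and 12.3 in males without overlap, as for 4.4% of the genes tested (0.50 ± 0.22 SE, limma adjusted p = 1.0) and had a difference of -0.20 once summed.

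The sum also changed the comparison of B and T cells, as the plot of log2 differences shows. The differences of mt-Co2, mt-Atp6 and mt-Nd3 fell from 0.55, 0.39 and 0.49 to 0.25, 0.06 and 0.16 and lost the threshold (limma adjusted p = 0.19, 0.74 and 0.36), and that of mt-Co3 fell from 0.30 to 0.05. The genes mt-Nd6 and mt-Cytb have no such copy, so the sum could not change their values. The copies of mt-Nd5 and mt-Nd2 held at most 0.574% and 0.434% of the summed signal, so the sum could hardly change these either. The difference of mt-Nd4 went from 0.57 to 0.60 and that of mt-Nd4l from 0.76 to 0.74. These 6 genes kept the threshold (limma adjusted p = 0.025 or less). Of the 15 genes, 6 thus passed after summing, where 73.0% of all 12511 genes did and 31.3% with the higher level in B cells. Of the 6 mRNAs without a near-identical copy, 4 passed as deposited.

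**Figure D3:**
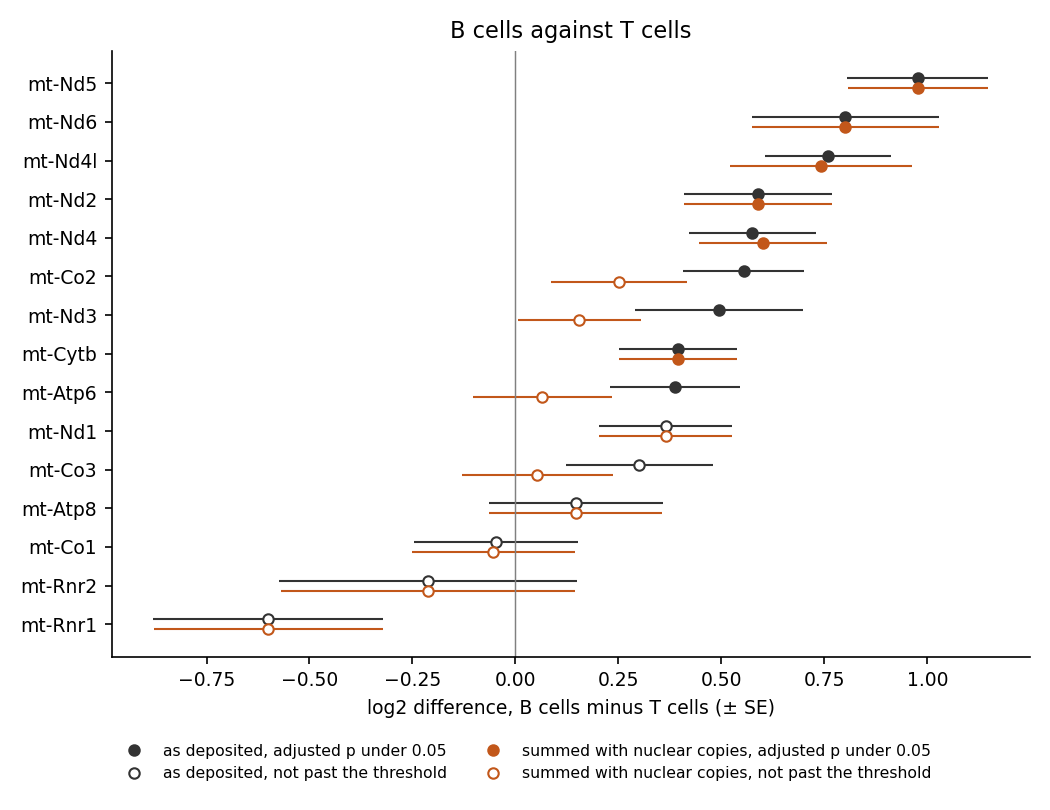
Log2 difference between B cells and T cells (B minus T, ± SE, 6 libraries each) for the 13 mRNAs and 2 rRNAs, as deposited and after adding the signal of nuclear copies. mt-Co2, mt-Nd3 and mt-Atp6 pass the threshold as deposited and not after the sum, while mt-Nd5, mt-Nd6, mt-Nd4l, mt-Nd2, mt-Nd4 and mt-Cytb pass in both. Nothing was added to mt-Nd6 and mt-Cytb, which have no such copy, and almost nothing to mt-Nd5 and mt-Nd2.

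The 2 rRNAs were not among the genes that passed. The gene mt-Rnr1, the RNA of the small subunit of the mitochondrial ribosome (chrM:70-1024, plus strand), was listed at 5496, 2854 and 2163 in female B cells, 3969, 2157 and 2520 in male B cells, 4950, 3528 and 3984 in female T cells and 5174, 3255 and 7575 in male T cells. Its log2 difference was -0.60 ± 0.28 SE (limma adjusted p = 0.070). For mt-Rnr2 (chrM:1094-2675, plus strand), with 14989 to 26393 in B cells and 17116 to 36647 in T cells, it was -0.21 ± 0.36 SE (adjusted p = 0.61), and its sign turned with the scaling.

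The rRNA of these libraries had been depleted, so the level of an rRNA here is what the depletion left. The table holds a value that moved with it. Yam1, a noncoding RNA gene, ran from 14179 to 543238 adjusted TPM and took 2.03% to 37.4% of a library's total, and the 4 libraries with most Yam1 were the 4 with most mt-Rnr1 (male T cell 6, female B cell 1, male T cell 4 and female T cell 4). They shared 3 of the 4 libraries with most mt-Rnr2 but 2 of the 4 with the highest mRNA sum. The part of depletion in the rRNA values was not tested. Without the 2 libraries in which Yam1 was above 25% of the total, mt-Rnr1 passed the threshold as lower in B cells, as it did without female B cell 1, male B cell 1 or male T cell 5 (lowest adjusted p = 0.015). Without the same 2 libraries mt-Cytb, mt-Atp6 and mt-Nd3 did not pass. The ratio of mt-Rnr2 to mt-Rnr1 was 4.84 to 5.26 in T cells and 4.80 to 7.73 in B cells, where the lowest value was that of female B cell 1, the B cell library with most Yam1.

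**Figure D4:**
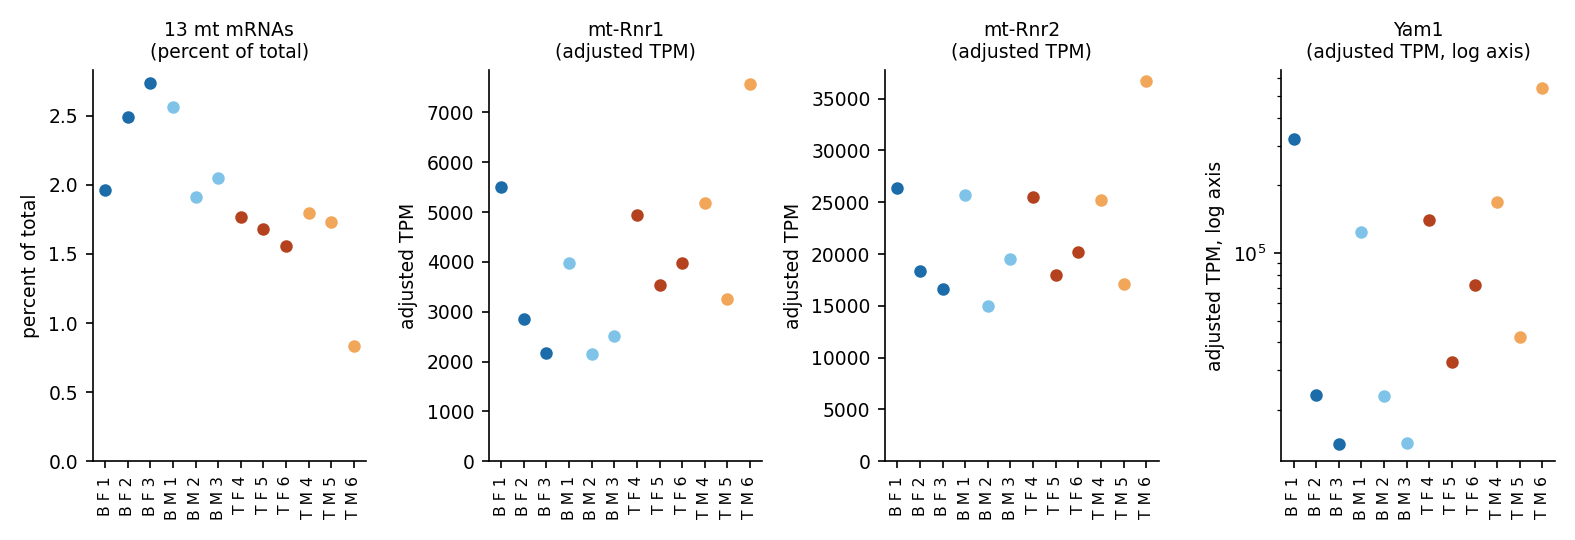
The summed share of the 13 mitochondrial mRNAs in percent of the total, the adjusted TPM of mt-Rnr1 and of mt-Rnr2, and the adjusted TPM of Yam1 (log axis), with 1 point for each of the 12 libraries (B or T cells, F female, M male, replicate number). Male T cell 6 has the lowest mRNA share, 0.832%, and the highest mt-Rnr1, mt-Rnr2 and Yam1.

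The nuclear genes that build and run the same machinery were compared with the mitochondrial genes, in lists chosen with earlier results of these data known. Of 239 nuclear genes in 11 lists, all tested, 22 passed the threshold as higher in B cells and 142 as higher in T cells, beside 31.4% and 41.6% of all genes tested. The subunits of the complexes were nearly all on the T cell side. Of 37 nuclear complex I subunits 33 were higher in T cells and 1 in B cells, of 9 complex III subunits 8 were higher in T cells, of 11 complex IV subunits 7 and of 15 ATP synthase subunits 14. The median log2 difference of these 72 genes was -0.46, against 0.49 for the 13 mitochondrial mRNAs of the same complexes.

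The largest differences among them were those of Cox7a2l, counted here with complex IV (165 ± 17.7 in B cells and 387 ± 48.4 in T cells, SD, n = 6, log2 difference -1.22 ± 0.10 SE, limma adjusted p = 1.5e-07), and of Ndufv3 of complex I (18.6 ± 0.967 against 40.4 ± 3.23, SD, n = 6, log2 difference -1.07, adjusted p = 3.5e-09). Ndufa10 of complex I had -0.81, Uqcrh and Uqcrq of complex III had -0.70 and -0.59, Cox4i1 of complex IV had -0.64, and Atp5h and Atp5j2 of ATP synthase had -0.81 and -0.73 (adjusted p from 2.2e-06 to 6.2e-05). These genes were named among those without overlap between B and T cells. The exception was Ndufs8, a complex I subunit that carries iron-sulfur clusters, with 26.1 ± 1.39 in B cells and 18.9 ± 2.66 in T cells (SD, n = 6, log2 difference 0.45 ± 0.08 SE, adjusted p = 0.00036).

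The counts, and the direction of the 239 genes as a whole, depend on the scale. The median of all genes was -0.09 as deposited and 0.25 when each library was rescaled to a total of 1000000, and on the latter scale 43 of the 239 nuclear genes passed, 33 higher in B cells and 10 in T cells. Of all genes that passed, 43.0% were higher in B cells as deposited and 70.8% on that scale. Measured from the median of all genes, which takes the scale out by construction, the 13 mRNAs lay 0.58 above it at their median with 13 of 13 above, while the 72 nuclear subunits lay at -0.38 with 5 of 72 above. With an equal nuclear protein-coding total 58 of the 239 were higher in B cells and 45 were lower. With a total that left out 5 abundant genes picked by name (Yam1, Lars2, Rn7sk, Gm26191 and Gm22405) 54 were higher and 58 lower. The direction of the nuclear lists as a whole thus turned with the scale. For the 72 subunits the median stayed below 0, but fewer passed than the 62 higher in T cells and 1 in B cells as deposited. It was -0.09 with a total of 1000000 (3 higher in T cells and 1 in B cells) and -0.38 with median-ratio scaling (57 and 1). It was -0.17 with an equal nuclear protein-coding total (24 and 5) and -0.20 without the 5 named genes (33 and 5). The number of mitochondrial genes past the threshold was 9 to 12 on the 5 scales, with the higher level in B cells for each. It was 11 with a total of 1000000, where 54.3% of all genes passed and 38.4% as higher in B cells, 12 with an equal nuclear protein-coding total (69.6% and 46.7%), 10 with median-ratio scaling (72.3% and 36.2%) and 11 with a total that left out the 5 named genes (71.3% and 46.6%).

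**Figure D5:**
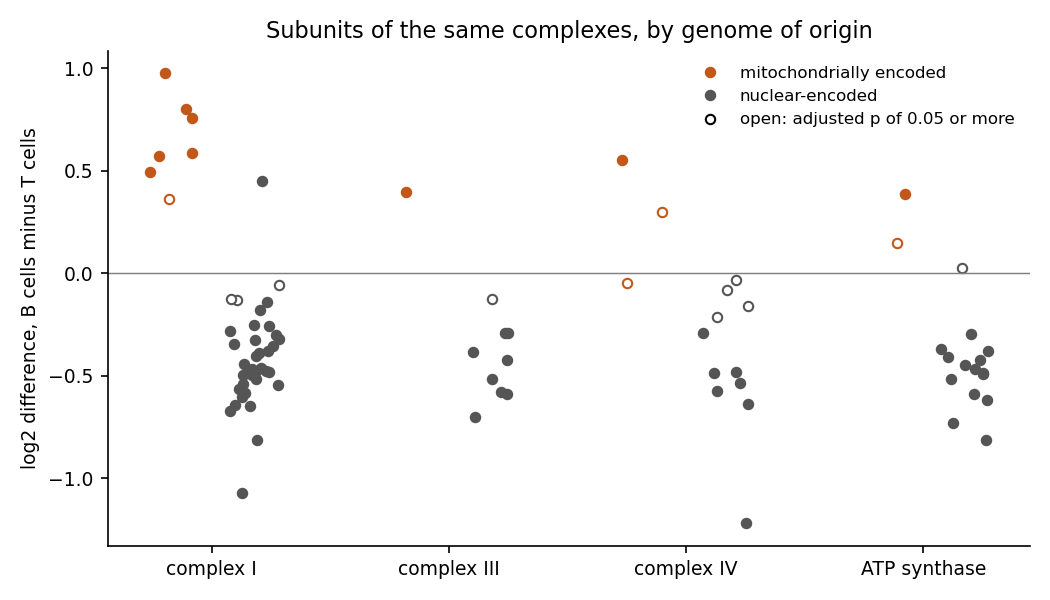
Log2 difference between B cells and T cells (B minus T) of each mitochondrially encoded and nuclear-encoded subunit, by complex, with filled points for an adjusted p under 0.05. All 7 mitochondrial subunits of complex I lie above 0, where 1 of 37 nuclear subunits does.

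The counts for the genes that make and handle mitochondrial RNA are to be read beside the 31.4% of all genes that were higher in B cells and the 41.6% that were higher in T cells. Of 10 genes of mitochondrial transcription, 3 were higher in B cells and 2 in T cells, among them Tfam, which packages mitochondrial DNA and starts its transcription (54.0 ± 4.06 in B cells and 43.1 ± 2.89 in T cells, SD, n = 6, log2 difference 0.32 ± 0.06 SE, limma adjusted p = 0.00042), and Mterfd3 (0.38, adjusted p = 0.0010). Of 20 genes of RNA processing and decay, 2 were higher in B cells and 9 in T cells, among them Rexo2, which degrades short RNAs (13.7 ± 1.51 against 30.3 ± 2.65, SD, n = 6, log2 difference -1.09, adjusted p = 6.6e-08), and Hsd17b10, a subunit of mitochondrial RNase P (-0.80). Of 11 genes of mitochondrial DNA maintenance, 4 were higher in B cells and 3 in T cells. Rrm2b, a subunit of ribonucleotide reductase, had 0.40 and Primpol 0.21, while the DNA polymerase subunits Polg2 and Polg had -1.11 and -0.37. On the scale with a total of 1000000 the difference of Polg was 0.01.

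The genes that act on tRNAs and rRNAs of the mitochondrion followed. Of 15 genes that modify mitochondrial tRNAs, 4 were higher in B cells (among them Osgepl1 with 0.66 and Trmt2b with 0.30) and 5 in T cells. Of 21 genes that charge tRNAs, 3 were higher in B cells, among them Qrsl1 (16.6 ± 0.924 in B cells and 7.86 ± 0.610 in T cells, SD, n = 6, log2 difference 0.99, limma adjusted p = 5.0e-09) and Gatc (0.68), both parts of the enzyme that makes glutaminyl-tRNA, and 10 in T cells, among them Gars (-0.51) and Ears2 (-0.49). In this list Lars2 was listed at 3391 to 63837 in B cells and 12029 to 112633 in T cells, and 3 of the 4 libraries with most Lars2 were among the 4 with most Yam1. Of 13 genes of rRNA modification and ribosome assembly, 8 were higher in T cells, among them Mrm1 (-0.71) and Mtg2 (-0.54), and none in B cells. Of 77 mitochondrial ribosomal proteins, 43 were higher in T cells, among them Mrpl33 (-1.28) and Mrps5 (-0.97), and 5 in B cells, among them Mrps7 (0.47) and Mrpl43 (0.36).

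The labels of the cells were checked against their defining genes. The 4 B cell markers added up to between 2220 and 2643 adjusted TPM in B cell libraries, with a highest sum of 4.91 among T cell libraries. The 5 T cell markers added up to between 1017 and 1194 in T cell libraries, with a highest sum of 14.1 among B cell libraries. Markers of other cells were present at low levels. The 7 platelet markers added up to 5.50 to 19.3 in B cells and 0.436 to 0.657 in T cells. Each of the 7 was higher in B cells without overlap, as were 24.2% of the genes tested. Of the 7 markers, Clec1b, Gp1bb, Gp9 and Treml1 did not pass the filter. The 5 myeloid markers added up to 9.22 to 13.8 in B cells and 1.10 to 4.66 in T cells. The 5 erythroid markers added up to 4.17 to 346 and 3.36 to 77.4, with no marker of these lists listed at exactly 0. The part of these cells in the mitochondrial differences was not tested. The 5 genes of the response to cell dissociation added up to 117 to 371 in B cells and 175 to 549 in T cells, which overlap, and of these genes Junb (-0.79, limma adjusted p = 0.015) and Dusp1 (-0.95, adjusted p = 0.035) passed the threshold as higher in T cells. Their part in the mitochondrial differences was not tested.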

How the data were processed

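RNA-seq values were analysed for 12 libraries in 4 groups of 3, taken from the sample labels. The authors' processing notes name Trim Galore, FastQC, STAR and the build mm10, while the quantifier, the adjustment, the level of the intervals and the annotation release are not given in the sources used here. The deposited signal is an adjusted TPM with a lower and an upper bound for each of 41128 genes. Totals ran from 561020 to 1453940 per library, no value was 0, and depth is unknown because the values are not counts. No pair of libraries had identical columns.

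Members were the rows whose name begins with mt-. The members and the gene lists were chosen with earlier results of these data known. The text names, from each nuclear list, up to 2 genes a direction with the largest difference that passed the threshold, did not overlap between B and T cells and had a mean log2 value of 3 or more. The 12520 genes that reached 1 adjusted TPM in 3 or more libraries were fitted as log2(adjusted TPM + 1) in limma 3.58.1 (R 4.3.3), with 1 coefficient per group and a mean-variance trend. This pseudocount understates changes of low genes. Adjusted p-values are Benjamini-Hochberg values over all genes tested, with a threshold of 0.05. The fit was tested on simulated data. Copies were found with blastn 2.17.0+ among GENCODE M21 transcripts (at least 100 bases, 80% of the copy and 95% identity), to which 97.9% of the genes matched. Where a copy covers part of a gene, a sum of both is no longer exactly per length. Tables and plots used Python 3.11.15 with numpy 2.4.6, pandas 2.3.3 and matplotlib 3.10.9. In T cells, female and male libraries of the same number deviated together (r = 0.72, 0.55 and 0.52 over genes), so they were treated as pairs in 2 alternative fits. The sample titles do not state a pairing, and the reason for the shared deviation was not tested. Alternatives were another pseudocount, no filter, 4 other scalings, leaving out libraries, a replicate block (also for the T cell pairs) and summing with copies.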

Additional observations from a re-analysis of the deposited data

Results flagged for a closer look

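In 56 checks of the 6 B cell or the 6 T cell libraries for a single value far from the rest (a gap to the nearest library above 0.625 of the whole range, which chance gives in about 1 of 20 such groups, or 2.8 of 56), 3 values met that measure, about the number chance gives, and the 3 were those of male T cell 6. They come from the same library and are not independent. Its mt-Nd6 was 85.2 adjusted TPM against 47.5 to 57.9 in the other T cell libraries. Its 13 mitochondrial mRNAs took 0.832% of the total against 1.56% to 1.80%. Its ratio of mitochondrial rRNA to mitochondrial mRNA was 3.65 against 1.37 to 1.94. The same library had the highest Yam1 (543238 adjusted TPM, 37.4% of its total) and the highest total, and its sum of mitochondrial mRNAs, 12103, was the lowest of the 12. The cause was not tested.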

How the results depend on the processing

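Over the alternatives run, the number of the 15 mRNAs and rRNAs past the threshold between B and T cells was 9 with a pseudocount of 0.1 and 6 with no filter. With no filter the 22 tRNAs were tested as well and 16 passed, from which no difference is read. The number of the 15 was 10 to 12 with the other scalings, 6 with copies added (as with near-identical copies alone) and 6 to 10 when single libraries were left out. With the pairs of T cell libraries as a replicate block it was 8, and with the pairs averaged 6. It was 7 without the 2 libraries highest in Yam1, a choice made after seeing the data, as were the fits with T cell pairs, the sums with copies, the scaling without 5 abundant genes and 2 of the share settings. Of all genes, 9122 of 12520 passed with the pseudocount of 0.1 (3914 higher in B cells) and 24591 of 41128 with no filter (12247). Without single libraries 8717 to 9193 of 12520 passed (3756 to 3957 higher in B cells). The number was 8851 (3916) without the 2 libraries highest in Yam1. mt-Rnr1 was counted as lower in B cells without female B cell 1, male B cell 1, male T cell 5 or those 2 libraries. The 5 genes mt-Nd2, mt-Nd4, mt-Nd4l, mt-Nd5 and mt-Nd6 passed in all 23 alternatives.

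Between the sexes the number of these 15 genes stayed 0 in B cells and 0 in T cells when single libraries were left out (range 0 to 0). It became 1 in B cells with no filter, through mt-Co2, and stayed 0 in T cells. Of the 22 tRNAs, tested only without the filter, 14 passed in B cells and 9 in T cells. Of all 41128 genes, 10985 and 10607 did, and no tRNA difference is read from these calls. The replicate numbers of B cells did not pair (r = -0.17, -0.04 and -0.34), and with a replicate block in the cell type alone the number was 0 in B cells and 0 in T cells, as without the block, while over all genes the calls were 5 and 5 in B cells and went from 10 to 5 in T cells.

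The nuclear genes past the threshold went from 164 (22 higher in B cells, 142 in T cells) to 43 (33 and 10) with a total of 1000000 and to 103 (58 and 45) with an equal nuclear protein-coding total, scales that move the median of all genes to 0.25 and 0.18. When single libraries were left out they were 150 to 169. The difference in mRNA share between B and T cells (0.72 percentage points of the total) was 1.16 points of nuclear protein-coding genes plus mitochondrial mRNAs and 1.19 without Lars2, and 0.578 to 0.798 without single libraries.

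Signs turned for small differences. With a total of 1000000, a nuclear protein-coding total and a total without 5 abundant genes, mt-Rnr2 had 0.17, 0.090 and 0.066, mt-Co1 had 0.33, 0.25 and 0.23, and RP23-8J15.2 had 0.19, 0.11 and 0.089. With median-ratio scaling mt-Co1 had 0.039, and with the total of 1000000 Polg had 0.0085. Without single libraries mt-Co1 ran from -0.13 to 0.015 and mt-Atp8 from -0.0070 to 0.32, and without the 2 libraries highest in Yam1 mt-Atp8 had -0.000610. The sums with copies turned the sex differences of mt-Atp6 (-0.018) and mt-Nd3 (-0.18) in B cells and of mt-Nd4l (-0.20) in T cells. The causes were not tested. Depth is unknown, so the precision of low values could not be set.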
